A study of Rattus norvegicus with 12 samples.

Results

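Mitochondrial ribosomal proteins were taken here as every probe set whose single gene symbol in the platform annotation begins with Mrpl or Mrps followed by a digit. A probe set is a group of short array probes that report 1 transcript region. The rule found 97 probe sets among the 31042 tested. They belong to 73 genes, 46 with an Mrpl and 27 with an Mrps symbol, with 1 to 4 probe sets each, of which 18 genes were read by several. The symbols were those of the platform's annotation, and all 97 gene IDs matched the RefSeq annotation of rat assembly GRCr8 under the same symbol. No filter on low signal was used, so every member was tested. Values are log2 signals, on which a difference of 1 is a doubling, and n = 3 animals per group throughout.

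Mitochondria carry their own ribosome, which translates the few messages of the mitochondrial genome, all of them for core subunits of oxidative phosphorylation. Its ribosomal RNAs come from mitochondrial DNA, whereas all of its proteins are encoded in the nucleus, made in the cytosol and imported. The large particle joins amino acids and releases the chain through its exit tunnel toward the inner membrane, and the small particle holds and reads the message. Many of the proteins have bacterial relatives and others exist only in mitochondrial ribosomes. The liver cell is rich in mitochondria and depends on respiration for urea synthesis, gluconeogenesis and detoxification.

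The hepatocytes came from livers of Fischer 334 rats, as the labels spell the strain, by collagenase perfusion, and were not cultured before their RNA was taken. Heart-beating donors were the controls, and nonheart-beating donors had been dead for 4, 16 or 30 h; sex, age and the temperature at which bodies were kept are not given in the labels. Each group held cells from 3 different donor animals, 1 Affymetrix array per animal. RNA of the isolated cells was measured in bulk, so fewer cells of a type and less RNA per cell cannot be told apart.

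Array medians lay between 5.83 and 5.90, and replicate arrays correlated at 0.991 to 0.997. Against heart-beating donors, limma called 4 of all probe sets lower and 3 higher at 4 h, 461 and 988 at 16 h, and 2904 and 3226 at 30 h, at an adjusted p under 0.05. The Gapdh control probe sets at the 3' and 5' ends of the transcript, whose difference grows as RNA is cut, were 0.39 ± 0.08 (SD) log2 units apart in controls and 0.38 ± 0.10, 1.05 ± 0.20 and 1.97 ± 0.29 apart after 4, 16 and 30 h. Tested against controls, an exact permutation (two-sided) gave p of 1, 0.1 and 0.1, of which 0.1 is the smallest that 3 against 3 arrays allow. For Actb the gap was 1.85 ± 0.05 in controls and 1.71 ± 0.15, 2.21 ± 0.33 and 2.87 ± 0.11 later, with exact p of 0.2, 0.2 and 0.1.

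At 4 h after death no mitochondrial ribosomal protein was called different from heart-beating donors. Limma called 0 of 97 lower and 0 higher, where 0.0129% of all probe sets were called lower and 0.00966% higher. At an unadjusted p under 0.05 there was 1 member, against 5.27% of all probe sets, and the member median was -0.03 against 0.00. Of the 97 members 70 were below 0 (72.2%, against 49.3% of all probe sets), so a tilt downward was already present at this small size. The 3 smallest p belonged to Mrpl57 (1375718_at), a small protein found only in the mitochondrial large particle, at -0.15 (SE 0.07, adjusted p = 0.933), to Mrpl52 (1388654_at) at 0.15 (SE 0.07, adjusted p = 0.946), and to Mrpl51 (1379874_at) at -0.20 (SE 0.13, adjusted p = 0.996). The 4 h arrays did not move together: the median member stood at -0.08 in animal 1, 0.08 in animal 2 and -0.11 in animal 3 relative to the mean of heart-beating donors. In 7 members all 3 animals at 4 h lay below all 3 heart-beating animals, against 6.22% of all probe sets, and in 2 all lay above, against 7.23%.

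By 16 h the members had shifted down by a small amount, and 4 of 97 fell (1.49% of all probe sets were called lower, 3.18% higher). None was called higher by limma, and 20 members had an unadjusted p under 0.05 in either direction, against 19.1% of all probe sets. The 4 were Mrpl51, Mrpl17, Mrpl19 and Mrps27, the last through the dimmest of its 3 probe sets. Mrpl51, a protein specific to the mitochondrial large particle, read 7.45, 7.34 and 7.38 in heart-beating donors with probe set 1379874_at, 7.24, 7.19 and 7.14 at 4 h, 6.83, 6.38 and 6.73 at 16 h and 5.55, 6.08 and 5.95 at 30 h. The 3 animals at 16 h lay below all 6 earlier animals, and the 3 at 30 h lay below those. The 16 h difference was -0.74 (SE 0.13, adjusted p = 0.00746).

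Mrpl17, relative of a bacterial protein at the rim of the exit tunnel, read 10.07, 10.08 and 10.22 in heart-beating donors, 10.03, 10.23 and 10.04 at 4 h, 9.61, 9.40 and 9.46 at 16 h and 8.85, 9.17 and 9.16 at 30 h. The 4 h animals overlapped with heart-beating donors, and the 16 and 30 h animals each lay wholly below the group before. The 16 h difference was -0.63 (SE 0.10, adjusted p = 0.00387). Mrpl19, a bacterial relative that sits at the interface of the particles, went from 7.83, 7.78 and 7.75 to 7.44, 7.36 and 7.21, a difference of -0.45 (SE 0.10, adjusted p = 0.0261). Mrps27, a pentatricopeptide repeat protein of the small particle, went from 5.15, 4.98 and 5.06 to 4.78, 4.76 and 4.79 with probe set 1393164_at, a difference of -0.29 (SE 0.07, adjusted p = 0.0342). Mrpl51 and Mrpl17 were called in all 12 fits that left out an array. Mrpl19 missed the threshold without any of heart-beating animals 1, 2 and 3 or 16 h animals 2 and 3 (adjusted p 0.0648 to 0.0885, difference -0.47 to -0.38). Mrps27 missed it without heart-beating animal 1 or 3 or any 16 h animal (adjusted p 0.0692 to 0.121, difference -0.29 to -0.25).

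The direction at 16 h was broader than these calls. Of the 97 members 77 were below 0 (57.8% of all probe sets), their median was -0.12 (all probe sets, -0.02), and in 40 of 97 (41.2%) all 3 animals at 16 h lay below all 3 heart-beating animals, against 15.7% of all probe sets. In 0 of 97 did they all lie above, against 13% of all. The number called at 16 h depended on arrays outside the comparison, which share the estimate of spread: without the 30 h arrays 18 members were called lower (3.09% of all probe sets), and without 30 h animal 1 alone 18 (2.6%). It was 2 without heart-beating animal 1 or 3, or without 16 h animal 2 or 3, where 0.477% to 1.15% of all probe sets were called lower.

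The sequence upstream of the start site is shown for members that moved in either direction, since genes of this class often share binding sites of a few activators. Each line gives the 100 bases before the RefSeq start in assembly GRCr8, read 5' to 3' on the strand of the gene. Capitals mark GCATGCG, a core of the site of the respiratory gene activator NRF1, CCGGAAG, a core of ETS-family sites such as that of GABP, and ATGGCGG, a core of the site of YY1, each searched on both strands. The first 4 genes fell at 30 h and the last 2 rose.
Mrpl17, chr1:169575700-169575799, minus strand: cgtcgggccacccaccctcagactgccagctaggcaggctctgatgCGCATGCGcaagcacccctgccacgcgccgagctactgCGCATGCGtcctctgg
Mrpl51, chr4:159677888-159677987, plus strand: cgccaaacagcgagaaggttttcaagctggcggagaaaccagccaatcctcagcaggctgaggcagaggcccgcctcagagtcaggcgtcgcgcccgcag
Mrpl27, chr10:80092245-80092344, plus strand: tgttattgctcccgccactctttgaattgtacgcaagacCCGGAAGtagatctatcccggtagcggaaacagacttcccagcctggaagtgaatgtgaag
Mrpl57, chr15:36086357-36086456, plus strand: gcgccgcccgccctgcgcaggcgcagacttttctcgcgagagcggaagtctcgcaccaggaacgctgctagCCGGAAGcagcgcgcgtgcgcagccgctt
Mrps2, chr3:32200977-32201076, plus strand: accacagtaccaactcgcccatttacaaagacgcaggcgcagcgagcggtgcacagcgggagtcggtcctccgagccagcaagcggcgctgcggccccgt
Mrpl54, chr7:9103425-9103524, plus strand: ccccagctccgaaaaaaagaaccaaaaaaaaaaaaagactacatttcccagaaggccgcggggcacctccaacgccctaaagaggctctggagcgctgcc
The NRF1 letters stand at both marked places of Mrpl17, where matches on the opposite strands run into each other, and the ETS letters in Mrpl27 and Mrpl57. None of the motifs is in the printed stretch of Mrpl51, which fell most, or of the risers Mrps2 and Mrpl54. The longer window of Mrpl54, counted below, does hold the YY1 letters. Among fallers not printed, the same stretch holds no motif in Mrps9, Mrps23 and Mrps33 and the NRF1 letters in Mrpl10. The printed genes therefore do not give the shares of fallers or risers with a motif, and the riser Mrpl38 is not shown.

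RefSeq windows from 250 bases before to 50 after the start were found for 59 of the 73 genes, 61 windows in all. The NRF1 letters were in 6 of the 61 windows (9.84%) and in 3.33% of all 33469 windows of the same length. The ETS letters were in 20 (32.8%, against 8.75%) and the YY1 letters in 13 (21.3%, against 4.8%). At least 1 of the 3 motifs was in 33 member windows (54.1%, against 15.1%), and matches of different motifs overlapped in none of them. The median GC content was 56% in the member windows and 51.7% in all. Among the 29 windows of genes called lower at 30 h, 3 held the NRF1 letters (10.3%), 10 the ETS letters (34.5%) and 8 the YY1 letters (27.6%). Among the other 32 windows it was 3 (9.38%), 10 (31.2%) and 5 (15.6%), and the difference was not tested. A match describes letters in a window and is no evidence that the factor binds there.

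At 30 h the fall was wide: 39 of the 97 probe sets (40.2%), of 38 genes, were called lower than in heart-beating donors and 3 probe sets, of 3 genes, higher. Of all probe sets 9.36% were called lower and 10.4% higher. Most members were brighter than the median probe set. Fitted over only the probe sets above the median mean signal, 40 of 88 members were called lower and 3 higher, against 14.4% and 17.5% of those probe sets. The median member was at -0.21 (all probe sets, 0.01), 75 of 97 were below 0 (47.7% of all), and 5 fell by at least 1 log2 unit. In 47 members (48.5%) all 3 animals at 30 h lay below all 3 heart-beating animals, against 16.6% of all probe sets, and in 4 all lay above, against 16.9%. All 39 called lower were among the 47. For 32 of the 73 genes no probe set was called. The median of the members was lowest in 30 h animal 1. With the Gapdh difference of each array as a covariate, limma called 0 members and 0 of all probe sets at 30 h. The members' median turned to 0.65 in that fit.

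**Figure D1:**
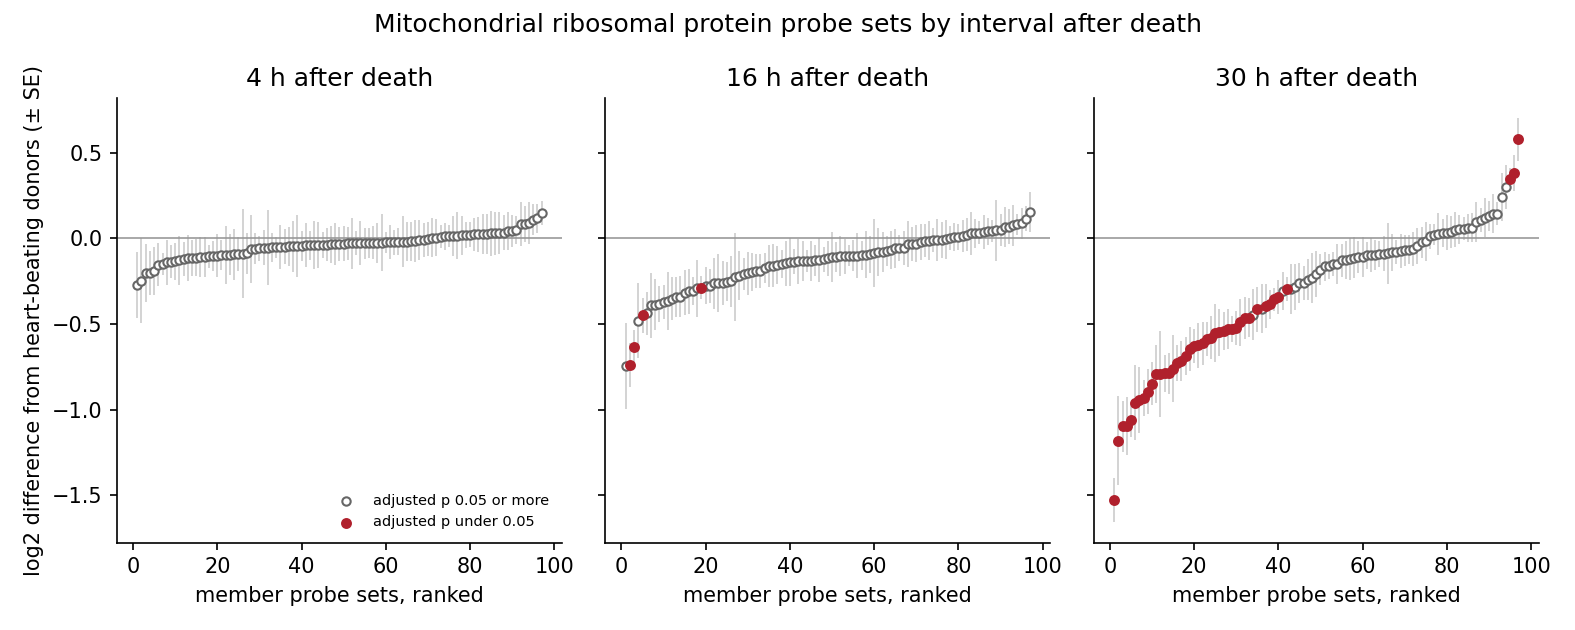
Log2 difference from heart-beating donors (vertical axis, ± SE from limma) of the 97 member probe sets, ranked within each panel (horizontal axis), at 4, 16 and 30 h after death; filled red points have an adjusted p under 0.05. No point is filled at 4 h, 4 are at 16 h, and at 30 h 39 are filled below 0 and 3 above it.

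Groups of members by site, here and below, were chosen after the values had been seen, and differences between them were not tested. Their counts at 30 h stand beside 9.36% of all probe sets called lower and 10.4% higher. The proteins around the peptidyl transferase centre, the site of peptide bond formation in the large particle, were called lower in 3 of 4 cases, with a median of -0.52. Mrpl27, whose bacterial relative reaches into that centre, read 9.93, 9.96 and 9.97 in heart-beating donors, 9.92, 9.96 and 9.88 at 4 h, 9.86, 9.58 and 9.60 at 16 h and 8.88, 9.29 and 9.34 at 30 h. Its 30 h animals all lay below the other 9, and the difference was -0.79 (SE 0.11, adjusted p = 0.000326). Mrpl16, which helps to seat transfer RNA there, differed by -0.58 (SE 0.13, adjusted p = 0.00573) and Mrpl3 by -0.46 (SE 0.11, adjusted p = 0.0113). Mrpl2, a core protein of the same centre, read 8.28, 8.13 and 8.19 in heart-beating donors and 8.19, 8.23 and 8.22 at 30 h. The ranges of Mrpl2 overlapped, and its difference of 0.01 (SE 0.07) was the closest to 0 of all members.

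Along the exit tunnel and its rim, 1 of 8 probe sets was called lower, with a median of -0.04. That was Mrpl17, described above, which by 30 h was at -1.06 (SE 0.10, adjusted p = 1.63e-05). Mrpl22 and Mrpl4, whose bacterial relatives line the tunnel wall, were at -0.41 (SE 0.14, adjusted p = 0.06) and -0.02 (SE 0.11). Mrpl23 was at 0.03 (SE 0.08), Mrpl44 at -0.15 (SE 0.07) and Mrpl45, which anchors the ribosome to the inner membrane, at -0.07 (SE 0.09). Mrpl47 and Mrpl39 were at 0.24 (SE 0.14) and 0.11 (SE 0.07), and neither was called against heart-beating donors.

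On the factor-binding stalk, which recruits translation factors, the call depended on the probe set. Mrpl10, the stalk base, read 8.41, 8.42 and 8.50 in heart-beating donors and 8.29, 8.62 and 8.54 at 30 h with 1373404_at, at 0.04 (SE 0.09). Its other probe set, 1395526_at, read 7.54, 7.39 and 7.55 and 6.32, 6.71 and 6.66, at -0.93 (SE 0.11, adjusted p = 8.85e-05). Mrpl12, the stalk protein that also binds the mitochondrial RNA polymerase, was not called, at 0.09 (SE 0.12) and, with 1396444_at, 0.03 (SE 0.12).

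The central protuberance is the crown of the large particle, where mitochondrial ribosomes differ most from bacterial ones. In its mitochondria-specific part, the only part counted here, 1 of 6 probe sets was called lower and 1 higher. Mrpl46 went from 7.26, 7.20 and 7.09 to 6.17, 6.70 and 6.55, a difference of -0.71 (SE 0.12, adjusted p = 0.000985). Mrpl38 went the other way, from 6.89, 6.93 and 6.85 in heart-beating donors, 7.09, 7.13 and 6.72 at 4 h and 6.76, 6.94 and 6.94 at 16 h to 7.18, 7.62 and 7.61 at 30 h. All 3 animals at 30 h lay above the other 9, and the difference of 0.58 (SE 0.12, adjusted p = 0.00553) was the largest rise among the members. Mrpl40, Mrpl48 and Mrpl58, a peptidyl-tRNA hydrolase built into the particle, were not called, at -0.13 to -0.09.

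Mrpl46 and the small-particle gene Mrps11 start back to back on opposite strands of rat chromosome 1, 233 bases apart, which makes them neighbours with a shared upstream stretch. It is given on the plus strand, so that Mrps11 lies to its right and Mrpl46 to its left, reversed.
Mrpl46 and Mrps11, chr1:142117031-142117263, plus strand: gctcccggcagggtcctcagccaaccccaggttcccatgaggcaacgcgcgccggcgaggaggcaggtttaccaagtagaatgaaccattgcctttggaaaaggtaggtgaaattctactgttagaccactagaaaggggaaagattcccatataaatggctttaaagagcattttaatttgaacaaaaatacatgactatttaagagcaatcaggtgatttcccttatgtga
None of the 3 motifs occurs in it. Mrps11, whose bacterial relative lines the message path, read 8.43, 8.30 and 8.54 in heart-beating donors and 7.82, 8.32 and 8.28 at 30 h. At -0.28 (SE 0.13, adjusted p = 0.16) it was not called, while Mrpl46 was. The difference between these neighbours was not tested.

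Other large-particle members with bacterial relatives made up much of the fall: with those above, 17 of 30 such probe sets were called lower and 0 higher, with a median of -0.43. Among the largest falls outside the sites above were Mrpl19 at -0.73 (SE 0.10), Mrpl20 at -0.76 (SE 0.20), Mrps18a, which despite its name is built into the large particle, at -0.69 (SE 0.11) and Mrpl15 at -0.62 (SE 0.13). Mrpl15 read 10.03, 9.82 and 10.04 in heart-beating donors and 9.0, 9.48 and 9.53 at 30 h. Of the 30 probe sets of proteins specific to mitochondria in the large particle, 9 were called lower and 2 higher, with a median of -0.12. The difference between these classes was not tested, since members are not replicates.

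Among those mitochondria-specific proteins, Mrpl51 (1379874_at) had the largest fall of any member, -1.53 (SE 0.13, adjusted p = 1.25e-05). Mrpl42 read 8.90, 8.77 and 8.90 in heart-beating donors and 7.22, 8.03 and 8.45 at 30 h. Its difference was -0.96 (SE 0.22, adjusted p = 0.00818), but the 30 h animals spread over more than a log2 unit, with animal 1 lowest. Mrpl50 with 1376585_at went from 8.32, 8.46 and 8.54 to 7.22, 7.70 and 7.72, at -0.90 (SE 0.13, adjusted p = 0.000478). Mrpl57 with 1375718_at went from 8.13, 8.14 and 8.25 to 7.78, 7.85 and 7.82, a small difference of -0.36 (SE 0.07, adjusted p = 0.0021) with little spread. Mrpl54 was the second riser of the particle, from 9.64, 9.78 and 9.72 in heart-beating donors and 9.67, 9.70 and 9.70 at 4 h to 10.02, 10.09 and 10.07 at 30 h, a difference of 0.35 (SE 0.06, adjusted p = 0.00181). Its 30 h animals lay above all others.

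In the small particle 13 of 37 probe sets were called lower and 1 higher, with a median of -0.16. Of the proteins at the decoding centre and along the message path, 3 of 8 were called lower: Mrps9, Mrps24 and Mrps12. Mrps12, relative of the bacterial protein that guards decoding accuracy, read 8.87, 8.87 and 8.93 in heart-beating donors and 7.88, 8.49 and 8.37 at 30 h, at -0.64 (SE 0.13, adjusted p = 0.00356). Mrps24, relative of a protein at the message entry, went from 9.58, 9.49 and 9.67 to 8.71, 9.08 and 9.07 with 1371649_at, at -0.63 (SE 0.10, adjusted p = 0.000775). Mrps9 with 1396142_at went from 7.61, 7.31 and 7.62 to 5.58, 6.68 and 6.73, at -1.18 (SE 0.26, adjusted p = 0.00619), with animal 1 about a log2 unit under the other two. Mrps7 and Mrps5 were at -0.10 (SE 0.09) and -0.11 (SE 0.12) and were not called.

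The largest falls in the rest of the small particle were those of Mrps33 and Mrps23, both specific to mitochondria. Mrps33 read 9.39, 9.43 and 9.45 in heart-beating donors, 9.34, 9.39 and 9.40 at 4 h, 9.25, 8.87 and 8.98 at 16 h and 7.88, 8.55 and 8.54 at 30 h. Each group at 16 and 30 h lay wholly below the one before, and the 30 h difference was -1.10 (SE 0.15, adjusted p = 0.000283). Mrps23 read 9.51, 9.55 and 9.67, 9.41, 9.51 and 9.52, 9.47, 9.25 and 9.24 and 7.94, 8.69 and 8.82 in the same order. Its 16 h animals were below all heart-beating animals and its 30 h animals far below those, and the difference from heart-beating donors was -1.10 (SE 0.17, adjusted p = 0.000696). Mrps6, a bacterial relative, was at -0.85 (SE 0.12, adjusted p = 0.000509) and Mrps18c with 1380447_a_at at -0.94 (SE 0.19, adjusted p = 0.00389).

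The riser of the small particle was Mrps2, which has a bacterial relative. With 1372116_at it read 7.87, 7.71 and 7.84 in heart-beating donors, 7.82, 8.02 and 7.59 at 4 h, 7.66, 7.87 and 7.86 at 16 h and 8.04, 8.27 and 8.25 at 30 h. The 30 h animals lay above all others, and the difference was 0.38 (SE 0.11, adjusted p = 0.0229). It missed the threshold without heart-beating animal 2 or 3 or 30 h animal 2 or 3 (adjusted p 0.0533 to 0.0848, difference 0.33 to 0.40), whereas Mrpl38 and Mrpl54 were called in all 12 fits. The 2 other probe sets of Mrps2 were at 0.06 (SE 0.08) and -0.16 (SE 0.07).

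**Figure D2:**
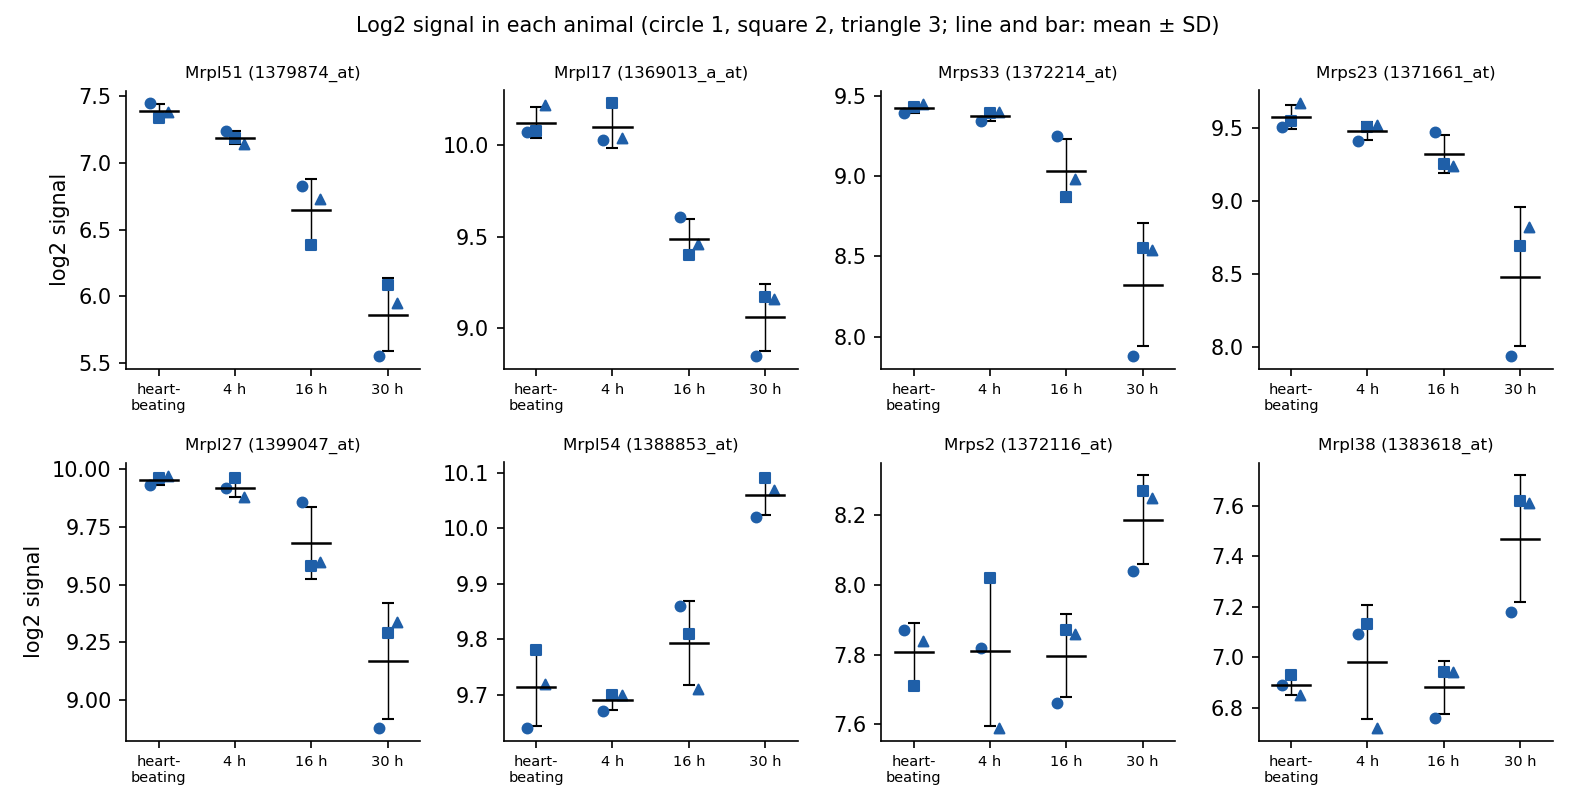
Log2 signal (vertical axes, scaled per panel) in each animal of the 4 groups (horizontal axes) for 5 members that fell at 30 h (Mrpl51, Mrpl17, Mrps33, Mrps23, Mrpl27) and the 3 that rose (Mrpl54, Mrps2, Mrpl38); symbols are animals, lines and bars the mean ± SD. In the 5 fallers every 30 h animal lies below all others, with animal 1 lowest, and in the 3 risers every 30 h animal lies above all others, again with animal 1 lowest.

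Of the 39 lower calls at 30 h, 31 held in all 12 fits that left out an array. Of the other 8, Mrpl33 and Mrpl49 (1372619_at) both missed the threshold without 30 h animal 1, at -0.22 (adjusted p = 0.153) and -0.44 (adjusted p = 0.118). Both also missed it without heart-beating animal 1 or 3, at -0.44 and -0.38 for Mrpl33 and at -0.69 and -0.78 for Mrpl49. Mrpl33 was called in 2 of the 12 fits, Mrps25 and Mrpl49 in 4, and Mrpl20, Mrpl30, Mrpl32, Mrpl55 and Mrps34 lost the call in 1 to 3 of them. At the other end, the 5 members closest to 0 at 30 h were Mrpl2, Mrpl4, Mrpl12 (1396444_at), Mrps15 (1381792_at) and Mrps26 (1375166_at), between -0.02 and 0.03. Of the 55 members not called, 36 were below 0, and their differences ran from -0.44 to 0.30.

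Starting signal and the 30 h difference were related only loosely, with Pearson r of -0.27 and Spearman rho of -0.26 over the 97 probe sets, which share the same 12 arrays. Of the 32 with the highest signal in heart-beating donors, 8.82 to 10.12, 18 were called lower, with a median of -0.40. It was 12 of 32 at 7.77 to 8.80, with a median of -0.15, and 9 of 33 at 4.25 to 7.76, with a median of -0.13. Signals of different probe sets depend on their probes and do not rank transcripts. By mean over all arrays the 5 brightest were Mrpl43 at 9.97, Mrpl54 at 9.81, Mrpl15 at 9.73, Mrpl17 at 9.69 and Mrpl27 at 9.68, of which Mrpl43 was not called. The 5 dimmest, Mrps15 (1381792_at), Mrps18c (1382418_at), Mrps24 (1378908_at), Mrps26 (1375166_at) and Mrps2 (1393468_at), lay between 4.24 and 4.80, below the median of all probe sets of 5.87, and none was called. The members' median was 8.16.

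**Figure D3:**
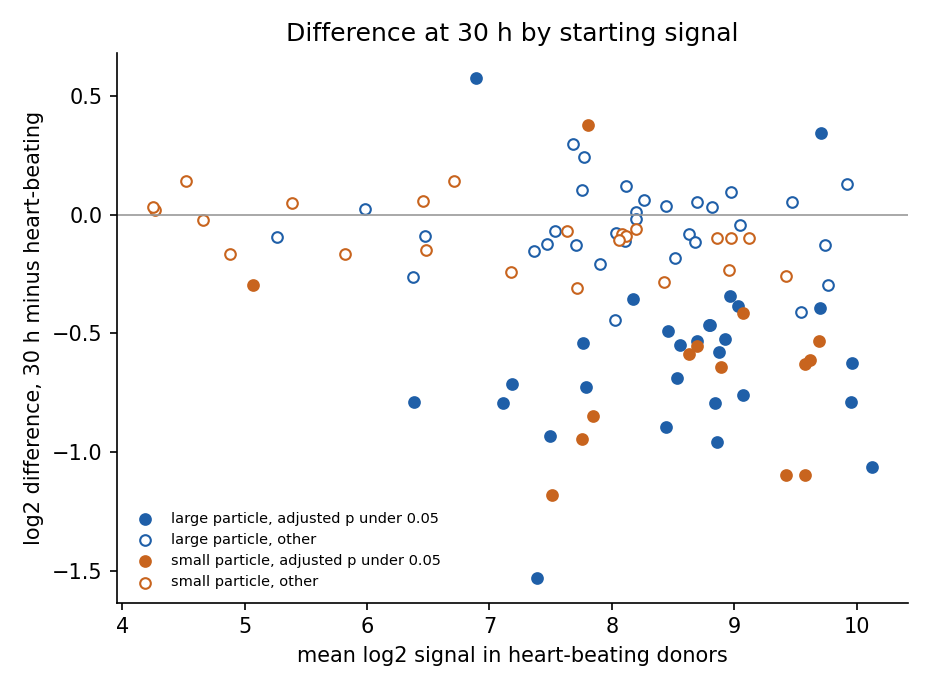
Log2 difference at 30 h (vertical axis) against the mean log2 signal in heart-beating donors (horizontal axis) for the 97 probe sets, coloured by particle, filled where the adjusted p is under 0.05. Filled points below 0 occur in both particles, 18 of the 39 among the 32 brightest probe sets, while the 5 dimmest probe sets are unfilled.

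From 16 to 30 h, of the members 17 were called lower and 4 higher (5.95% and 4.29% of all probe sets), with a median of -0.14 against 0.03, and 70 of 97 were below 0 (42.6% of all). The median was -0.04 without 30 h animal 1 and -0.09 without 16 h animal 1. In 33 members all 3 animals at 30 h lay below all 3 at 16 h, against 12.9% of all probe sets, and in 9 all lay above, against 13.7%. Among called members whose groups did not overlap, the 10 largest falls were those of Mrps9 (-0.96), Mrps23 (-0.84), Mrpl51 (-0.79), Mrps33 (-0.71), Mrpl20 (-0.67), Mrpl50 (-0.59), Mrpl10 (-0.55), Mrpl27 (-0.51), Mrpl52 (-0.47) and Mrpl37 (-0.45), each through a single probe set, with adjusted p from 0.0024 to 0.0475. Mrpl38 (0.59), Mrps2 (0.39), Mrpl54 (0.26) and Mrpl39 (0.24) were the risers. Only 4 of these 21 calls held in all 12 fits that left out an array. The count of lower calls was 4 without 16 h animal 1 (2.47% of all probe sets), 11 without 16 h animal 2 (4.2%), 8 without 30 h animal 1 (3.87%) and 28 without 30 h animal 2 (7.06%). That of higher calls was 1 without 16 h animal 1 or 3 (1.6% and 2.95% of all), and 2 without 16 h animal 2 or 30 h animal 2 or 3 (2.71%, 6.27% and 4.51%).

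Over the whole series, the group means of 56 members (57.7%) stepped down from heart-beating donors to 16 h and again to 30 h, as did those of 21.7% of all probe sets. Against the 4 h group, 37 members were called lower at 30 h and 4 higher (8.62% and 10.3% of all), with a median of -0.20, which was -0.08 without 30 h animal 1 and -0.11 with array weights. The 30 h animals lay wholly below the 4 h animals in 41 members and wholly above them in 4 (16.1% and 16% of all probe sets). The comparison of 16 h with heart-beating donors and that of 30 h with 4 h share 0 arrays, so their values can be set side by side. All 4 members lower at 16 h were also lower in the second comparison, as were 333 of the 461 probe sets (72.2%) lower at 16 h in all. Of the members 61 (62.9%) were below 0 in both, against 37.1% of all probe sets. Pearson r between the 2 sets of differences was 0.74 over the 97 members and 0.51 over all probe sets, which are not independent replicates. The higher calls against 4 h were 2 without 4 h animal 1 (7.74% of all probe sets), and 1 without 4 h animal 3 or 30 h animal 2 or 3 (7.99%, 8.8% and 10.7%).

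Probe sets of the same gene often disagreed at 30 h. In the 18 genes with more than 1, the brightest was compared with each other probe set in a limma fit of within-gene differences over 6609 such pairs of 4525 genes. At 30 h 15 of the 24 member pairs, in 12 genes, changed unequally (62.5%, against 34.8% of all pairs). At 16 h 3 did (12.5%, against 14.1% of all pairs) and at 4 h 0 (against 0.0454% of all pairs). From 16 to 30 h 11 of 24 did (18.8% of all pairs) and at 30 h against 4 h 15 (35.3% of all pairs). No gene with several probe sets had all of them called lower, and 12 had 1 called lower beside 1 that was not. The lower member of the pair was the brighter in 7 of the 15 and the other in 8. Some of these pairs held a set dimmer than the median of all probe sets, as for Mrps24 and Mrps18c, so unequal change is not always conflicting evidence.

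Mrpl50 gave the sharpest case at like signal: 1376585_at fell, as above, while 1372927_at read 8.09, 8.13 and 8.13 in heart-beating donors and 7.99, 8.36 and 8.36 at 30 h, at 0.12 (SE 0.11). The changes differed by 1.02 log2 units (SE 0.12, adjusted p = 1.98e-06). Mrpl49, a mitochondria-specific protein of the large particle, was at 0.30 (SE 0.13) with 1373241_at and at -0.79 (SE 0.25, adjusted p = 0.0409) with 1372619_at, which differed by 1.09 log2 units (SE 0.15, adjusted p = 1.70e-05). For Mrpl10 the gap was 0.97 log2 units (SE 0.10, adjusted p = 4.98e-07). For Mrps9 it was 0.87 log2 units (SE 0.17, adjusted p = 0.000526), with 1373002_at at -0.31 (SE 0.11).

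Mrpl51 had 4 probe sets. The brightest, 1390509_a_at, read 9.0, 8.71 and 8.82 in heart-beating donors and 7.55, 8.24 and 8.37 at 30 h, at -0.79 (SE 0.17, adjusted p = 0.00534). Beside the larger fall of 1379874_at, the other 2 were at -0.18 (SE 0.09) and -0.26 (SE 0.12) and were not called. Mrpl37, whose 3 probe sets were at -0.04, -0.79 and -0.09, fell in 1394292_at alone, at an adjusted p of 0.000607. Mrpl52 was at -0.08 with the brighter and -0.53 (adjusted p = 0.000417) with the other probe set. Mrps14 and Mrps24 were called through their brighter sets, at -0.61 and -0.63, beside -0.06 and 0.15. Mrps18c was called in 1 of 3, beside -0.15 and 0.03. Some sets not called were dim: 1378908_at of Mrps24 had a mean of 4.57 and 1382418_at of Mrps18c one of 4.26. The median of all probe sets was 5.87. Whether sets this dim could show a fall was not tested. Mrps27 was at 0.14, -0.16 and -0.30, of which the last was called (adjusted p = 0.00906) at a mean of 4.91. For Mrpl57, with -0.11 beside the fall of 1375718_at, the difference between the sets was not called (adjusted p = 0.126).

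**Figure D4:**
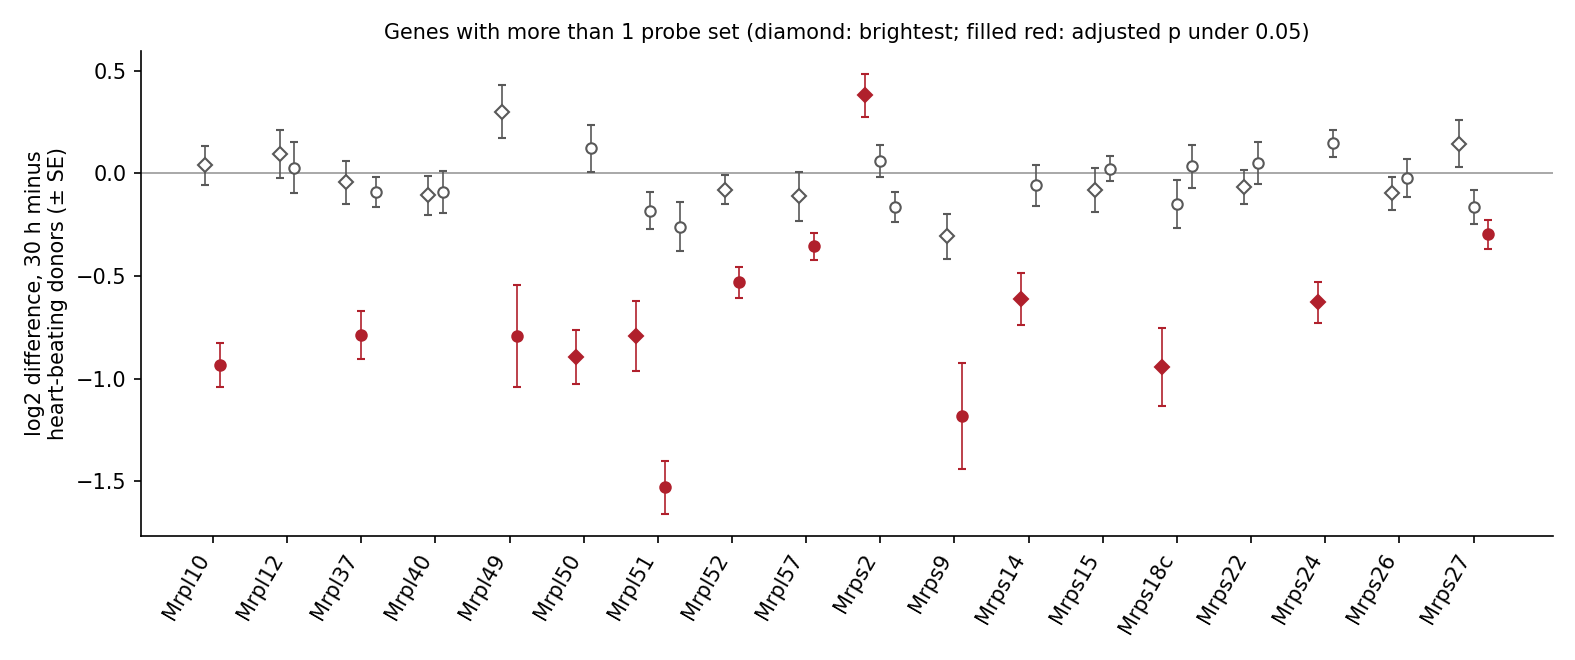
Log2 difference at 30 h from heart-beating donors (vertical axis, ± SE) of every probe set of the 18 genes with more than 1 (horizontal axis); diamonds are the brightest probe set of a gene and filled red symbols have an adjusted p under 0.05. In 12 genes a filled symbol below 0 stands beside an unfilled one, as for Mrpl10, Mrpl49 and Mrpl50, and no gene has all its symbols filled. Signal is not drawn, and some unfilled sets are dim, as in Mrps24 and Mrps18c.

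The Gapdh 3' to 5' difference, a measure of RNA integrity, was larger on the 16 and 30 h arrays than in heart-beating donors. At 30 h it was largest in animal 1, in which the members' median was lowest. The median member stood at -0.41 in 30 h animal 1 and at -0.14 and -0.13 in animals 2 and 3, relative to the mean of heart-beating donors, while the median of all probe sets stood between -0.02 and 0.03 on these arrays. The median over cytosolic ribosomal protein probe sets, described below, was also lowest in animal 1, at -0.35, with -0.24 and -0.08 in animals 2 and 3. Animal 1 was the lowest of the 3 in 83 of 97 members and in 37 of the 39 called lower, against 34.7% of all probe sets. Its Gapdh 3' to 5' difference was 2.30, and those of animals 2 and 3 were 1.82 and 1.79. For Actb the order was reversed, with 2.75 in animal 1 and 2.92 and 2.95 in animals 2 and 3. On the 16 h arrays the Gapdh differences were 0.85, 1.25 and 1.06, with member medians of -0.07, -0.13 and -0.16. The cytosolic medians there were -0.06, -0.14 and -0.17. The median SD of the members was 0.22 at 30 h, against 0.07 in heart-beating donors (0.12 and 0.08 for all probe sets). Without 30 h animal 1, 35 members were called lower and 4 higher (7.67% and 9.14% of all probe sets). The members' median was then -0.12, and the 39 lower members had a median of -0.46 in place of -0.63.

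With the Gapdh 3' to 5' difference of each array as a covariate, limma called 0 members at 30 h and 0 of all probe sets, and 48 members had an unadjusted p under 0.05, against 14.3% of all probe sets. The members' median then turned to 0.65, with 84 of 97 above 0, while the median SE rose from 0.11 to 0.31. It turned to 0.25 at 16 h as well, where 0 members were called (25 of all probe sets lower and 45 higher) and 38 had an unadjusted p under 0.05, against 21.6% of all. Time after death and the Gapdh difference rose together over these arrays, so their parts in the fall cannot be told apart.

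**Figure D5:**
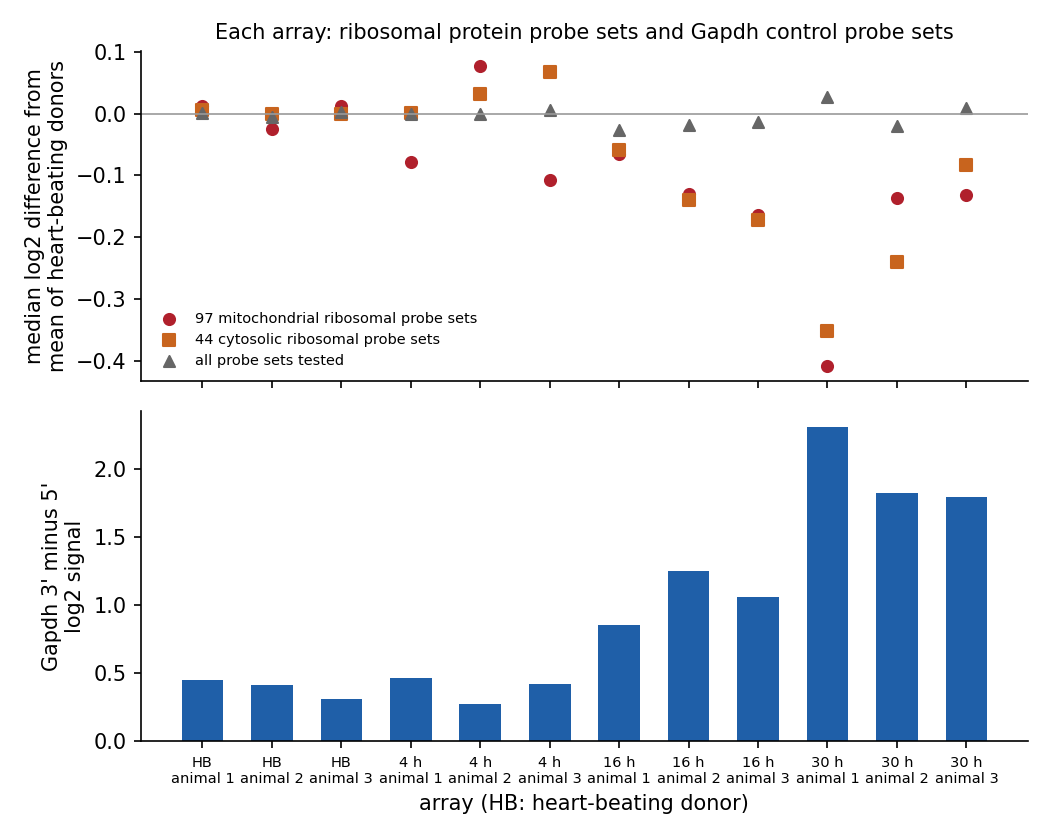
Upper panel, median log2 difference from the mean of heart-beating donors (vertical axis) over the 97 mitochondrial ribosomal, the 44 cytosolic ribosomal and all tested probe sets in each of the 12 arrays; lower panel, Gapdh 3' minus 5' log2 signal in the same arrays. The mitochondrial medians fall to -0.41 in 30 h animal 1, which has the highest Gapdh difference, 2.30, while the medians of all probe sets stay between -0.03 and 0.03. The cytosolic medians are also lowest in that animal, at -0.35.

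Proteins of the cytosolic ribosome, which makes the mitochondrial ribosomal proteins, also included many falls: 21 of 44 probe sets (47.7%) were called lower at 30 h and 1 higher, with a median of -0.22, and 3 were called lower at 16 h. They were taken by symbol, and the difference between the ribosomes was not tested. The 5 measured subunits of the mitochondrial ribosome with other symbols gave 1 lower call, that of Chchd1, a small-particle protein, at -1.40 (SE 0.19, adjusted p = 0.000338). Ptcd3, a repeat protein of the small particle, was at 0.26 (SE 0.10, adjusted p = 0.093), and Gadd45gip1 of the large particle at 0.14 (SE 0.11, adjusted p = 0.419).

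The factors that work with this ribosome moved in both directions. Of 18 probe sets of initiation, elongation and release factors, 4 were called lower and 4 higher at 30 h, and 1 lower and 2 higher at 16 h. Mtif2, which brings the initiator transfer RNA, was at 0.82 (SE 0.10, adjusted p = 0.000196), and Mtfmt, which formylates it, at 0.39 (SE 0.09, adjusted p = 0.0101). Mtres1, a rescue factor for stalled ribosomes, was at 0.49 (SE 0.11, adjusted p = 0.00833). Tufm, the elongation factor that delivers aminoacyl-tRNA, was at -1.51 (SE 0.20, adjusted p = 0.000222) with 1395719_at and at -0.43 (SE 0.13, adjusted p = 0.038) with 1371962_at.

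Among 26 probe sets of mitochondrial aminoacyl-tRNA synthetases and the related amidotransferase, 4 were lower and 3 higher, among them Iars2 at -0.65 (SE 0.11, adjusted p = 0.00147), Gars1 at -0.50 (SE 0.13, adjusted p = 0.0155), Vars2 at 0.61 (SE 0.11, adjusted p = 0.00205) and Nars2 at 0.63 (SE 0.14, adjusted p = 0.0061). Assembly and rRNA modification factors gave 5 lower and 3 higher of 33. Noa1, a GTPase needed for the small particle, was at 0.48 (SE 0.07, adjusted p = 0.000302), Afg3l2, the protease that matures Mrpl32, at -0.46 (SE 0.09, adjusted p = 0.00435), Ddx28 at -0.36 (SE 0.08, adjusted p = 0.00509) and Rpusd3 at -0.28 (SE 0.07, adjusted p = 0.0178). Mrpl32 itself was at -0.34 (SE 0.10, adjusted p = 0.0292).

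Genes of mitochondrial transcription and RNA handling were called higher in 9 and lower in 4 of 48 probe sets. Lrpprc, which stabilises mitochondrial messages, was at 0.61 (SE 0.08, adjusted p = 0.000285) with 1373500_at, but at -0.23 (SE 0.06, adjusted p = 0.0174) with 1381466_at. Gabpb1, a subunit of the ETS factor GABP, was at 0.72 (SE 0.11, adjusted p = 0.000505), Tbrg4 at 0.43 (SE 0.09, adjusted p = 0.00341) and Ssbp1, the single-stranded DNA binding protein, at -0.56 (SE 0.12, adjusted p = 0.00664). Of 8 probe sets of inner-membrane insertion and early assembly factors, 4 were lower and 2 higher, with Coa3 at -0.71 (SE 0.13, adjusted p = 0.00169), Cmc1 at -0.73 (SE 0.16, adjusted p = 0.00559), Timm21 at -0.76 (SE 0.19, adjusted p = 0.0126) and Letm1, which binds mitochondrial ribosomes at the membrane, at 0.47 (SE 0.11, adjusted p = 0.00701). The counts of these groups at 30 h are read against 9.36% lower and 10.4% higher over all probe sets, and those at 16 h against 1.49% and 3.18%.

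Markers of other liver cells moved too. Over all probe sets 9.36% were called lower and 10.4% higher at 30 h, and 1.49% and 3.18% at 16 h. The log2 summed signal of 12 measured hepatocyte markers was 16.95 to 16.98 in heart-beating donors and 16.78 to 16.88 at 30 h, with 5 of 18 probe sets lower and 2 higher. Kupffer cell markers, 11 measured, went from 12.39 to 12.49 down to 11.69 to 11.98, with 10 of 13 probe sets lower at 30 h and 8 at 16 h. Markers of stellate cells and fibroblasts went from 11.41 to 11.85 up to 12.03 to 12.42, with 7 of 15 higher, and those of red cells from 12.08 to 12.40 up to 13.75 to 14.33, with 4 of 6 higher. Endothelial markers had 2 of 11 higher at 30 h, with overlapping ranges of 11.56 to 11.73 in heart-beating donors and 11.49 to 12.11. At 16 h 4 of 11 were higher and 0 lower, at 12.17 to 12.18. No probe set of bile duct, lymphocyte or neutrophil markers (6, 7 and 4) was called at 30 h. Hepatocyte markers were bright in every group, and the part of other cells in the members' change was not tested.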

How the data were processed

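Hepatocyte RNA from 12 rats was measured on Affymetrix arrays, 1 per animal. The authors deposited log2 signal for every probe set, and the submitters' processing notes name RMA and limma; RMA corrects background, makes the arrays' distributions alike and summarises the probes of a set, so a value is read relative to the other probe sets on that array. How each tool was set, and its version, is not given in the sources used here. Arrays carry no count depth, and their number limits the precision.

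Of 31099 probe sets, 57 controls were left out. The other 31042 were fitted with limma 3.58.1 (lmFit and eBayes, R 4.3.3), with 4 group means, all 12 arrays, 8 residual and 4.93 prior degrees of freedom, and no filter. A probe set was called at a Benjamini-Hochberg adjusted p under 0.05 over all 31042. The comparisons were 4, 16 and 30 h against heart-beating donors, and 30 h against 16 h and 4 h. Replicate columns were compared and 0 pairs were identical. In simulated data on 31042 probe sets for the 30 h comparison, 67 of 100 probe sets moved by a log2 difference of 0.5 and 97 of 100 moved by 1 were called, with 10 false calls. Each probe set was drawn on its own, with the same spread in every group, and no other probe set was changed. In the data far more probe sets changed, and the members' median SD was 0.22 at 30 h and 0.07 in heart-beating donors. The simulated rates therefore do not give those of the real 30 h comparison.

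The members, the lists and the rule for named genes were chosen with earlier results of these data known. Named were the 10 largest falls and rises among called members whose groups did not overlap, the 3 smallest p at 4 h, all probe sets of genes with several of which 1 was called at 30 h, the 5 brightest, dimmest and closest to 0, and up to 4 members of each list by p. The fit of differences within a gene and the lists of structural roles were chosen after the values had been seen; other members of the role groups are named with them. Particle and origin were assigned by hand from general knowledge, and promoter windows came from RefSeq (GRCr8). SciPy 1.17.1 gave the exact tests.

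The alternatives were median centring, cyclic loess, a further quantile normalization, only probe sets above the median mean signal, only probe sets with 1 symbol, the brightest or the mean of the probe sets of a gene, limma's trended and robust prior, weights by array, only the groups compared, a replicate block, the Gapdh difference as a covariate, no 30 h arrays, and leaving out each array.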

Additional observations from a re-analysis of the deposited data

How the results depend on the processing

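The number of lower calls at 30 h, 39 (9.36% of all probe sets), lay between 29 and 44 under every alternative except the Gapdh covariate. The ends were those of only the groups compared (6.42%) and cyclic loess (10.4%), and the members' median stayed below 0. With the Gapdh covariate the lower and higher calls were 0 and 0 at 16 h, at 30 h, from 16 to 30 h and from 4 to 30 h. Of all probe sets 0.0805% and 0.145%, 0 and 0, 0.0129% and 0.0129%, and 0 and 0 were called, in the same order. The median member turned to 0.25, 0.65, 0.38 and 0.67. Named differences that turned upward with it were, at 30 h against heart-beating donors, Mrps24 1371649_at 0.35, Mrps23 1371661_at 0.84, Mrpl42 1371853_at 1.50, Mrps33 1372214_at 0.65, Mrpl49 1372619_at 1.84, Mrpl52 1374411_at 0.0638, Mrpl50 1376585_at 0.50, Mrps18c 1380447_a_at 1.15, Mrps14 1383090_at 0.75, Mrps6 1389110_at 0.52, Mrpl51 1390509_a_at 0.90, Mrpl10 1395526_at 0.12, Mrps9 1396142_at 1.82 and, against 16 h, Mrps9 1396142_at 0.79, Mrps23 1371661_at 0.29, Mrps33 1372214_at 0.31, Mrpl20 1371720_at 0.62, Mrpl50 1376585_at 0.22, Mrpl10 1395526_at 0.0635, Mrpl27 1399047_at 0.18; none of the 39 named differences kept its call. The cause was not tested, and the median SE of the members rose from 0.11 to 0.31.

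At 16 h the 4 lower calls (1.49% of all probe sets) became 2 with median centring (1.11%), 10 with cyclic loess (1.96%), 9 with a further quantile normalization (1.86%), 7 over probe sets above the median mean signal (2.63%), 2 with the mean of a gene's probe sets (1.28%), 18 with array weights (4.64%), 16 with only the groups compared (2.57%) and 18 without the 30 h arrays (3.09%). From 16 to 30 h the 17 lower calls (5.95%) became 10 with array weights (4.78%) and 5 with only the groups compared (3.34%), and the 4 higher calls (4.29%) 2 with median centring (3.41%) and 1 with only the groups compared (2.07%). From 4 to 30 h only the groups compared gave 23 lower and 1 higher (6.04% and 7.47%). The cause was not tested.

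Leaving out 1 array at a time gave 31 to 42 lower and 2 to 4 higher calls at 30 h with a median from -0.24 to -0.12, 2 to 18 lower calls at 16 h, 4 to 28 lower and 1 to 5 higher from 16 to 30 h, and 25 to 37 lower and 1 to 6 higher from 4 to 30 h. At 4 h no setting called a member. Deviations of same-numbered animals correlated at -0.27 to 0.11 over 18 pairs, 2 of them over 0.1. The labels do not say that the numbers pair animals, and with 3 animals a group these correlations cannot exclude it. With the number as a replicate block, 36 members were lower and 3 higher at 30 h (8.5% and 9.6% of all probe sets), and 3 lower at 16 h (1.17%). The block gave 12 and 3 from 16 to 30 h (5.11% and 3.6%), and 32 and 3 from 4 to 30 h (7.99% and 9.69%). With 3 arrays a group, changes near a log2 difference of 0.5 were called in only part of the simulated cases.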
